A study of Mus musculus with 8 samples.

Results

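Complement is a cascade of plasma proteins that marks surfaces for uptake and lysis, and its transcripts were followed here in fibroblastic reticular cells (FRC), the fibroblasts that build the lymph node scaffold. The 9 genes described, of 55367 in the count table, were taken by name: the classical pathway proteases C1s1 and C1ra with their relative C1rl, the thioester components C3 and C4b, the alternative pathway protease Cfb, and the membrane regulators Cd55, Cd59a and Cd46. C1s1 was chosen by its measured rise with CCM and TCM, so its values are a description without a test, and counts of changed genes are given without it. The other 8 genes were taken as complement genes, at a time when earlier results of these data were known.

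RNA was read from 1 FRC line, which came from the lymph nodes of C57BL/6 mice carrying p53 ER/ER, with 2 libraries for each of 4 media after 4 days. Vehicle was RPMI with a matching volume of water, and LA was RPMI with 15 mmol/L lactic acid. CCM (control-conditioned medium) was RPMI conditioned by FRCs themselves, and TCM (tumor-conditioned medium) was RPMI conditioned by B16.F10 melanoma cells. All 4 media held the same low share of serum. CCM is the conditioned control for TCM, and vehicle is the control for LA. All cells are 1 line, so the replicates carry no variation between animals, and each p-value measures the spread between these libraries.

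Total counts per library ranged from 8232889 to 14107964 (median 10111168.5), and the floor of 3 counts per library corresponds to 0.211 to 0.354 CPM, which are reads of a gene per total reads scaled to a common library size. The replicates of TCM differed most, at a chi-square per degree of freedom of 19.8, against 3.28 to 7.32 in the other media. Of 10 FRC markers 7 passed the filter. The list summed to 13322 to 17936 CPM over all libraries, mostly Col1a1, which had 12554 to 17214 CPM. Col1a2, the other collagen I gene of the list, had only 6.36 to 15.2 CPM. Il7 passed the filter at 0.558 to 1.83 CPM. Thy1, with 42 counts in all 8 libraries together, did not pass, Ccl21a was at 0 in every library and Ccl19 had 1 count in all. Ptprc, which encodes CD45, was at 0 in every library, as were the T and B cell markers and the macrophage markers Adgre1, Itgam and Fcgr1. The macrophage list, mostly Lyz2, summed to 15.3 to 18.7 CPM with vehicle, 16.4 to 17.2 CPM with CCM, 11.0 to 11.6 CPM with LA and 14.7 to 24.4 CPM with TCM. Lyz2 was higher with TCM over LA (log2 FC 0.92, adjusted P = 0.0188), and its part in that comparison was not tested. The endothelial list summed to 0.842 to 2.07 CPM. The melanoma list summed to 1.53 to 1.89 CPM with TCM and 0.954 to 1.77 CPM in the other media, mostly Pmel in every library. Tyrp1 had 6 and 3 counts and Dct 1 and 1 in the TCM libraries, against 0 in the other 6, and Tyr was at 0 in all 8. The part of these reads in the results was not tested. Among the FRC markers, Pdpn was higher (log2 FC 0.44, adjusted P = 0.0108) and Pdgfrb lower (-0.47, adjusted P = 0.00926) with TCM over CCM, and their part in the results was not tested.

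In the classical pathway C1r cuts itself and then C1s, C1s cuts C4 and C2, and the C3 convertase so formed cuts C3, whose fragment binds covalently to nearby surfaces. Cd55 and Cd46 disarm convertases on host cells, and Cd59a blocks the last, pore-forming step. Liver is the main source of most plasma components, but fibroblasts also make C1r, C1s and C3.

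The 3 protease genes lie side by side on chromosome 6 (GRCm38), where C1rl (124493113 to 124510643) and C1ra (124512405 to 124523443) are on the plus strand and C1s1 (124530345 to 124542359) on the minus strand. Their promoters are shown because these 3 neighbors are the proteases whose values the results turn on. Each is 300 bases of RefSeq sequence (GRCm38.p6), 250 before and 50 after a transcript start, read along the gene's strand, with motif letters in capitals. C1rl is chr6:124492863-124493162, C1ra is chr6:124512371-124512670 and C1s1 is chr6:124542310-124542609. The C1ra stretch begins at 124512371, whereas the gene position given above, from GENCODE, begins at 124512405. Most of that stretch, with its RefSeq start, therefore lies inside the gene as GENCODE places it.
C1rl: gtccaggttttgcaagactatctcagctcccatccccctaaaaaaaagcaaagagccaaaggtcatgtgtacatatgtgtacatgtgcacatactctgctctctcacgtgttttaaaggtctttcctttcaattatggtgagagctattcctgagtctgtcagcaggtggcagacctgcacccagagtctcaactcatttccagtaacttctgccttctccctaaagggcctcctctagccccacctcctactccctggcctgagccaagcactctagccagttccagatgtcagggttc
C1ra: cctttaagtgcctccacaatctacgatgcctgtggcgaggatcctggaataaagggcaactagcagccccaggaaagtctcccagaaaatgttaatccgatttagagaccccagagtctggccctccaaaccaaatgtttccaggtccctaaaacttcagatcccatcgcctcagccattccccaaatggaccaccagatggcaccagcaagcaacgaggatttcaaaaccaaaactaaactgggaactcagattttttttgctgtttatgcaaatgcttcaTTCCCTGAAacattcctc
C1s1: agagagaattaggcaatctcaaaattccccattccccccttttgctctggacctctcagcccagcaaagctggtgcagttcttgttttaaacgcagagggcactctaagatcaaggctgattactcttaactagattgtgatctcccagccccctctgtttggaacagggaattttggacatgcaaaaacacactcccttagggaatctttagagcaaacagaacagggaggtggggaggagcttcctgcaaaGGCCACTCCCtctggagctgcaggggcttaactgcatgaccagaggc
The letters searched on both strands were GAS (TTC, 3 bases of any kind, GAA), the ISRE core (GAAA, any 2 bases, GAAA) and kappaB (GGG, any 5 bases, CC), which 8.298%, 3.443% and 50.79% of 32851 promoters hold. The capitals mark 1 GAS match in C1ra and 1 kappaB match in C1s1, both after the transcript start, and C1rl held 0 matches. Counted from a second RefSeq start of C1s1, the same kappaB match lies 35 bases before the start. These are matches of letters only. RefSeq promoters were found for 7 of the 9 genes, all but C4b and Cfb. Among those not shown, Cd59a and Cd46 held ISRE and kappaB matches, and C3 and Cd55 held kappaB matches.

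With TCM, 4 of the 5 tested genes other than C1s1 rose over CCM: C1ra, C1rl, C4b and Cd59a. By comparison, 19.1% of all 12137 genes tested were called for TCM over CCM, in either direction. C3, the central component, was not called in any comparison, and 0 of the 5 were called for CCM over vehicle (1.3% of all genes) or for LA over vehicle (2.55%). Calls required an adjusted P under 0.05 in the edgeR quasi-likelihood test together with a log2 FC past 0.39 in either direction. The 5 genes had a median log2 FC of 0.96 for TCM over CCM, where the median of all genes was near 0. Only 6 of the 9 genes had 10 counts in at least 3 libraries, and the 5 tested are these without C1s1. In bulk RNA, fewer cells making a transcript and less of it per cell cannot be told apart.

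C1s1, the protease that cuts C4 and C2, had 30.5 and 34.7 CPM with vehicle, 39.2 and 42.7 CPM with LA, 75.3 and 69.2 CPM with CCM, and 128 and 131 CPM with TCM. The order of the media was therefore vehicle, LA, CCM and TCM, and no neighbors in it overlapped. Means were 32.6 ± 3.03, 41.0 ± 2.45, 72.2 ± 4.30 and 129.5 ± 2.16 CPM in that order (SD, n = 2). The fitted log2 FC was 1.15 (SE 0.11) for CCM over vehicle, a fold of 2.21. It was 0.84 (SE 0.10) for TCM over CCM, a fold of 1.79, and 0.33 (SE 0.11) for LA over vehicle. These are the values, or share libraries with the values, for which the gene was picked. The antisense gene Gm16567, which lies over C1s1, had at most 4 counts in a library.

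C1ra, the protease that activates C1s, had 37.6 and 39.1 CPM with vehicle, 49.2 and 48.6 CPM with CCM, 45.7 and 36.5 CPM with LA, and 92.2 and 98.0 CPM with TCM. Both TCM libraries lay above all 6 others, and the LA libraries spanned the vehicle ones. TCM exceeded CCM 1.94-fold, with a log2 FC of 0.96, an SE of 0.12 and an adjusted P of 0.00021. For CCM over vehicle the libraries did not overlap, but the log2 FC of 0.35 had an adjusted P of 0.213. For LA over vehicle the log2 FC was 0.09 (95% interval -0.18 to 0.36, adjusted P = 0.833). TCM exceeded vehicle by 1.31 (SE 0.12, adjusted P = 5.07e-05) and LA by 1.22 (SE 0.12, adjusted P = 7.79e-05) on the log2 scale.

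C1rl is a protease-like relative of C1r whose place in the cascade is less settled. It had 21.0 and 19.4 CPM with vehicle, 21.0 and 17.8 CPM with CCM, 26.2 and 20.6 CPM with LA, and 45.2 and 42.4 CPM with TCM. TCM stood apart from the other 3 media, which overlapped or adjoined one another. TCM over CCM gave a log2 FC of 1.17, with an SE of 0.14 and an adjusted P of 0.000195. CCM over vehicle gave -0.06 (95% interval -0.38 to 0.27, adjusted P = 0.933), with means of 19.4 CPM for CCM and 20.2 CPM for vehicle. TCM exceeded vehicle by 1.12 (SE 0.14, adjusted P = 0.000359) and LA by 0.92 (SE 0.14, adjusted P = 0.0011) on the log2 scale.

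**Figure D1:**
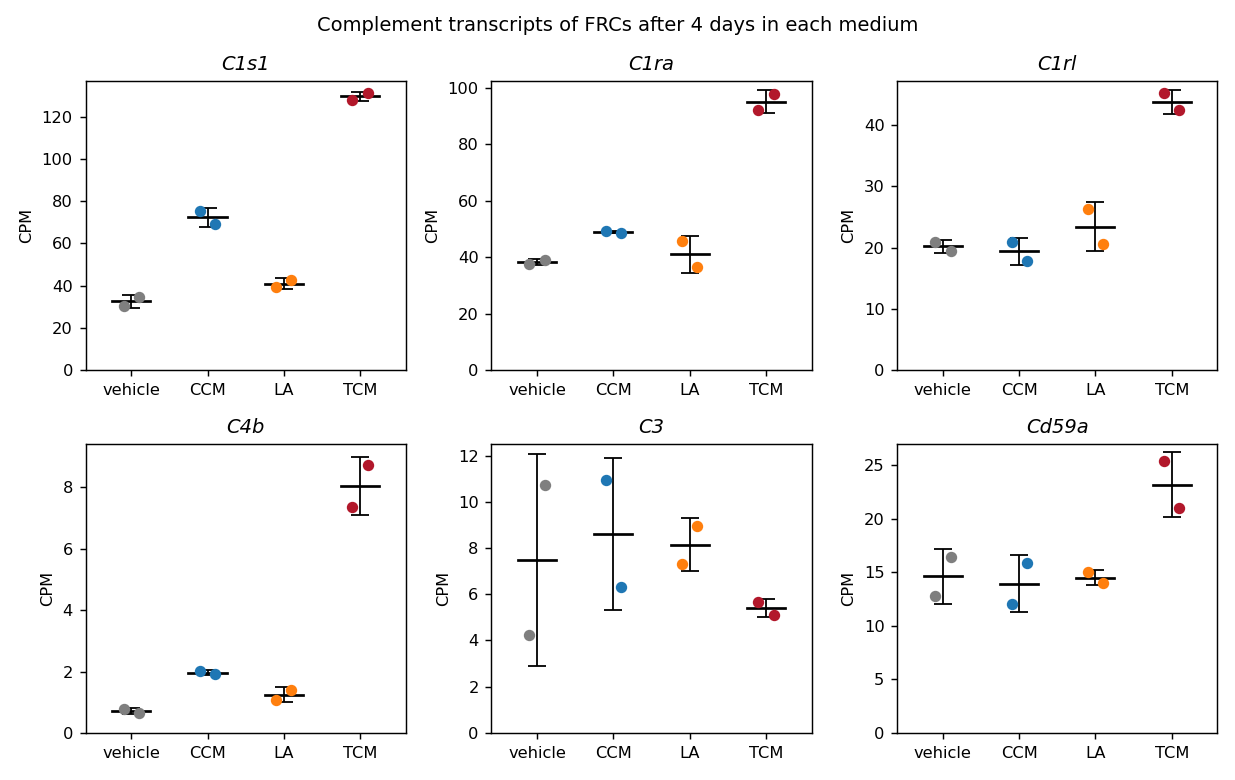
CPM of the 6 genes that passed the filter, in each library, by medium (dots are libraries, bars are means, error bars are the SD of 2 libraries). C1s1, C1ra, C1rl, C4b and Cd59a are highest in both TCM libraries, whereas C3 spans 4.24 to 10.9 CPM with its TCM libraries inside the vehicle range.

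C4b, the thioester component that C1s cuts, lies on the minus strand of chromosome 17 (34728380 to 34743882). It had few reads in all media, with counts of 7 and 7 with vehicle, 9 and 20 with LA, 24 and 20 with CCM, and 70 and 80 with TCM. In CPM the means were 0.714 ± 0.0949 for vehicle, 1.24 ± 0.244 for LA, 1.97 ± 0.0792 for CCM and 8.04 ± 0.958 for TCM (SD, n = 2). The order of the media was that of C1s1, and no neighbors overlapped on the CPM scale. TCM exceeded CCM 4.07-fold (log2 FC 2.02, SE 0.24, adjusted P = 0.000183). It exceeded vehicle 11.2-fold with a 95% interval of 7.12 to 17.6 (log2 FC 3.48, SE 0.30, adjusted P = 3.5e-05). CCM over vehicle was 1.46 (SE 0.36), a fold of 2.75, and missed the threshold (adjusted P = 0.0784). It passed with only the 4 libraries of that comparison in the fit (adjusted P = 0.0374), without TCM replicate 1 (0.0468) and without TCM replicate 2 (0.0469).

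C3, on whose cleavage the pathways converge, lies on the same strand of that chromosome (57203970 to 57228136) and had 4.24 and 10.7 CPM with vehicle, 10.9 and 6.30 CPM with CCM, 7.33 and 8.95 CPM with LA, and 5.68 and 5.12 CPM with TCM. The vehicle and CCM replicates each differed by more than the means of the media did, and both TCM values lay between the 2 vehicle values. The log2 FC of TCM over CCM was -0.68 (95% interval -1.52 to 0.15, adjusted P = 0.232). CCM over vehicle was 0.19 (interval -0.60 to 0.97) and LA over vehicle 0.11 (interval -0.68 to 0.90), so changes within these intervals were not detectable at this depth and spread. C3 passed the threshold for TCM over CCM only when no filter on low counts was used (adjusted P = 0.0262).

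Within a library the 2 thioester genes changed places. Reads per kilobase of C3 were 6.01 and 18.4 times those of C4b in the vehicle libraries, 6.00 and 3.65 times in the CCM libraries and 7.63 and 7.03 times in the LA libraries. With TCM the ratio was 0.854 and 0.651, below 1 in both libraries and apart from the other 6. The ratio of C1s1 to C1ra per kilobase was 0.772 and 0.847 with vehicle and 0.817 and 1.11 with LA, against 1.46 and 1.36 with CCM and 1.32 and 1.27 with TCM. This second ratio is a description only, because C1s1 was chosen by its rise with CCM and TCM. As counted, C1s1 was the rarer of the 2 per kilobase with vehicle and the more abundant one with both conditioned media. C1ra shares 50.8% and C1s1 35.1% of its 50-base stretches with other transcripts, and how such reads were counted is not given. Which of the 2 was the more abundant is therefore uncertain.

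**Figure D2:**
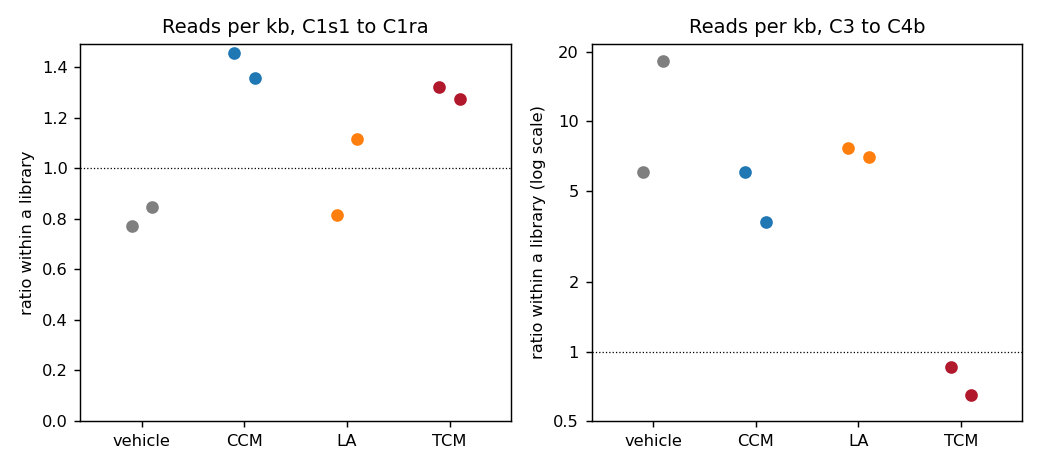
Ratio of reads per kilobase within each library, C1s1 to C1ra (left, linear axis) and C3 to C4b (right, log axis), with a dotted line at 1. The C1s1 ratio lies above 1.2 in the CCM and TCM libraries, for whose rise C1s1 was chosen, so it is a description only. The C3 ratio lies below 1 in the TCM libraries alone.

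Levels between genes are given per kilobase of exon. With vehicle the mean CPM per kilobase was 12.9 for C1ra, 10.4 for C1s1, 8.08 for Cd59a, 6.71 for C1rl, 1.45 for C3 and 0.125 for C4b. With TCM it was 41.4 for C1s1, 31.9 for C1ra, 14.5 for C1rl, 12.8 for Cd59a, 1.41 for C4b and 1.05 for C3. C1s1 and C1ra thus stood above C3 and C4b in both media, and C4b moved past C3 with TCM.

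Several of these genes have near-identical copies. C1ra shares 50.8% of its 50-base stretches with other transcripts, C1s1 35.1% and C4b 34.6%, chiefly with C1rb, C1s2 and C4a. In any library C1rb had at most 3 counts, C1s2 at most 11 and C4a at most 8. How reads that fit both copies were counted is not given, so the levels of C1ra, C1s1 and C4b are uncertain to that extent. C1rl and C3 share 0% of such stretches with another gene.

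Cd59a, the GPI-anchored inhibitor of pore formation, lies on the plus strand of chromosome 2 (104095801 to 104115354) and had 12.8 and 16.4 CPM with vehicle, 12.0 and 15.8 CPM with CCM, 15.0 and 14.0 CPM with LA, and 25.4 and 21.0 CPM with TCM. The 3 media other than TCM overlapped, and both TCM libraries lay above them. TCM exceeded CCM 1.67-fold (log2 FC 0.74, SE 0.17, adjusted P = 0.0115). Without CCM replicate 1 the call was lost (log2 FC 0.55, adjusted P = 0.136). TCM over vehicle (log2 FC 0.66, adjusted P = 0.0225) was lost without vehicle replicate 1 or TCM replicate 1 (adjusted P = 0.172 and 0.0819). TCM over LA (log2 FC 0.68, adjusted P = 0.0204) was lost without LA replicate 1, LA replicate 2 or TCM replicate 1 (adjusted P = 0.0655, 0.138 and 0.074).

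The remaining membrane regulators and Cfb were near or below the floor. Cd46 had 1 and 4 counts in the vehicle libraries, 6 and 0 counts in the CCM libraries, 2 and 4 counts in the LA libraries and 3 and 4 counts in the TCM libraries. Cd55, the decay-accelerating factor, had 1 count in all 8 libraries, and Cfb, the protease of the alternative convertase, had 3. For these genes no difference was detectable at this depth. Cfb shares 73.0% of its 50-base stretches with Gm20547, which overlaps it on the same strand and was itself at 0. How reads that fit both genes were counted is not given, so the level of Cfb is uncertain to that extent. Cd59a was therefore the only one of the 3 membrane regulators described here with a level that could be tested.

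**Figure D3:**
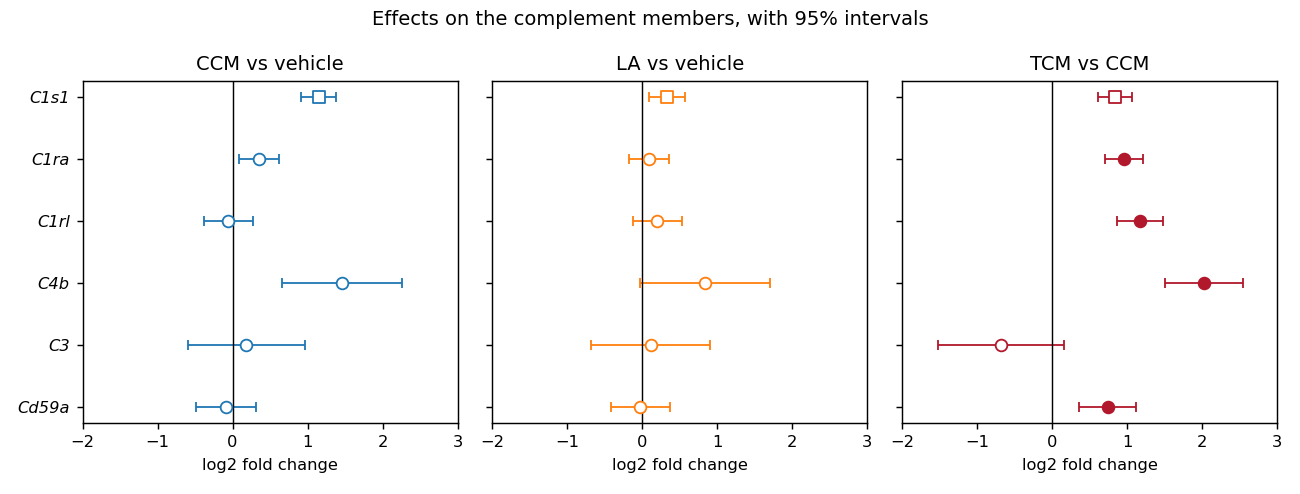
Log2 FC with 95% intervals for CCM over vehicle, LA over vehicle and TCM over CCM. Filled circles mark called genes, open circles genes that were not called, and open squares C1s1, which was not tested. For TCM over CCM the filled circles are C1ra, C1rl, C4b and Cd59a, from 0.74 to 2.02, and the other 2 panels have no filled circle.

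The design sets LA beside TCM to ask how far lactic acid alone gives the response to tumor medium. For LA over vehicle, where 0 of the 5 genes were called, 0 also had an unadjusted P under 0.05 by edgeR or by DESeq2. Their median log2 FC was 0.11. The largest of the 5 was that of C4b, at 0.83 (SE 0.40, adjusted P = 0.379 by edgeR), a fold of 1.78. Its 95% interval of -0.04 to 1.71 was wide, so changes of C4b within it were not detectable at this depth and spread. For CCM over vehicle 2 of the 5 (C1ra and C4b) had an unadjusted P under 0.05 by edgeR, and 2 by DESeq2, which called 0. LA over CCM called 0 of the 5, beside 0.626% of all genes, with 0 at an unadjusted P under 0.05 by edgeR or DESeq2.

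TCM over vehicle called 4 of the 5, all higher, beside 17.5% of all genes, with a median log2 FC of 1.12. TCM over LA also called 4 of the 5, all higher, beside 16.1%, with a median of 0.92. All 3 comparisons with TCM use the same 2 TCM libraries. DESeq2 also called 4 in each of the 3.

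The effect of TCM over CCM minus that of LA over vehicle was tested directly, and 10.4% of all genes were called. TCM had the larger effect on C1ra (difference of log2 FC 0.87, SE 0.17, adjusted P = 0.00704) and on C1rl (0.97, SE 0.20, adjusted P = 0.0108). C1rl was lost without vehicle replicate 1, CCM replicate 2 or LA replicate 2 (highest adjusted P = 0.0587). For C4b the difference was 1.19 (95% interval 0.11 to 2.27, adjusted P = 0.164) and for Cd59a 0.77 (interval 0.21 to 1.32, adjusted P = 0.0808), and neither was called. Cd59a was called by edgeR without a filter on low counts (adjusted P = 0.0149). It was also called with a replicate block in which the 2 CCM numbers were swapped (adjusted P = 0.0447). Without TCM replicate 2 the Cd59a difference was 0.90. C3 differed by -0.79 (interval -1.95 to 0.36, adjusted P = 0.389).

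A list of 46 other complement genes places these values in the pathway. Of them 11 passed the filter, 20 were at 0 in every library and 15 had some counts. C1qa, C1qb and C1qc, the recognition unit to which C1r and C1s bind, were all at 0, as were C6, C7, C8a, C8b and C9 of the pore and Cfd, which activates factor B. Of the tested genes 0 were called for CCM over vehicle (1 at an unadjusted P under 0.05 by edgeR and 1 by DESeq2), 1 for LA over vehicle, and 4 each for TCM over CCM and TCM over vehicle. The shares of all genes called in these comparisons were 1.3%, 2.55%, 19.1% and 17.5%. The median log2 FC of the 11 was 0.16, 0.14, -0.07 and -0.06 in that order.

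Clu, clusterin, a soluble regulator that blocks insertion of the terminal complex, had 290 and 268 CPM with vehicle, 221 and 211 CPM with CCM, 365 and 251 CPM with LA, and 862 and 714 CPM with TCM. It rose with TCM over CCM by 1.87 (SE 0.16, adjusted P = 3.5e-05), while LA over vehicle was 0.14 (adjusted P = 0.794).

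Colec11, a lectin that starts the lectin pathway, went the other way. It had 5.91 and 11.0 CPM with vehicle, 6.74 and 3.82 CPM with CCM, 1.30 and 2.82 CPM with LA, and 1.05 and 0.654 CPM with TCM. Its log2 FC was -1.95 for LA over vehicle (SE 0.40 and adjusted P = 0.0308) and -2.62 for TCM over CCM (SE 0.53 and adjusted P = 0.00544), both called. The LA call was lost without vehicle replicate 2, LA replicate 1 or LA replicate 2 (adjusted P = 0.287, 0.169 and 0.0769), and the TCM call without TCM replicate 2 (log2 FC -2.33, adjusted P = 0.0533).

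The other 4 calls changed with the tool or the libraries. Cfp, properdin, which holds the alternative convertase together, fell with TCM over CCM by 0.89 on the log2 scale (adjusted P = 0.0324), as did Itgb2, the beta chain of the complement receptor integrins, by 1.20 (adjusted P = 0.0403). Masp1, a protease of the lectin pathway, rose with TCM over vehicle by 0.42 (adjusted P = 0.0161), and C8g, a subunit of C8, by 0.94 (adjusted P = 0.0403). DESeq2 did not call Cfp, Itgb2 or C8g (adjusted P = 0.145, 0.191 and 0.140). The Masp1 call was lost without vehicle replicate 1, vehicle replicate 2 or TCM replicate 2, and the Cfp call without CCM replicate 1, CCM replicate 2 or TCM replicate 1. C8g was lost with each library left out but TCM replicate 2, and Itgb2 with each but CCM replicate 2, the highest adjusted P over such fits being 0.106 for Masp1, 0.161 for Cfp, 0.248 for C8g and 0.313 for Itgb2. Masp1 overlaps Rtp4 on the other strand, which had 0.558 and 1.39 CPM with vehicle and 15.2 and 19.2 CPM with TCM, and C8g overlaps Fbxw5. Whether the counting used strand is not given in the sources used here, and without strand the reads of such pairs cannot be told apart.

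**Figure D4:**
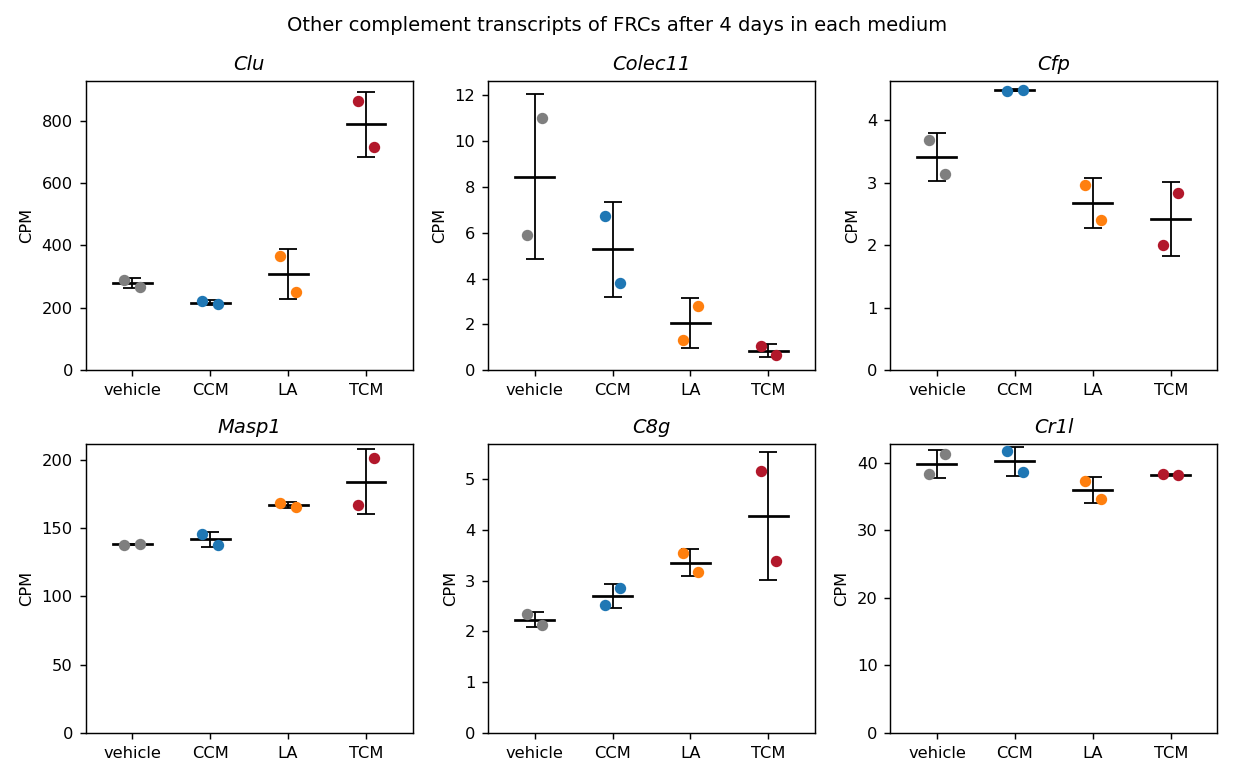
CPM of 6 other complement genes in each library, by medium (dots are libraries, bars are means, error bars are the SD of 2 libraries). Clu is highest and Colec11 lowest in both TCM libraries, and Cr1l stays between 34.7 and 41.8 CPM in all 8.

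Cr1l, the rodent membrane regulator that limits C3 convertases, was present at 34.7 to 41.8 CPM and was not called in any comparison. For TCM over CCM its log2 FC was -0.07, with a 95% interval of -0.31 to 0.16.

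Over the 8 libraries, the genes whose log2 CPM followed C1s1 most closely by Pearson correlation were Ninl (0.997), Clec11a (0.990), Mmp19 (0.988), Nrn1 (0.987) and Gm5835 (0.984). Among 12136 genes ranked, C4b came 9th (0.970), C1ra 53rd (0.929), C1rl 954th (0.741), Cd59a 1259th (0.700) and C3 7545th (-0.22). The 8 points are 4 media in pairs, so the values describe the order of the media. Mmp19, a matrix metalloproteinase, for example, had 42.7 and 45.0 CPM with vehicle, 49.7 and 48.5 CPM with LA, 61.9 and 58.2 CPM with CCM and 68.4 and 70.5 CPM with TCM, the same order as C1s1 over a narrower range.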

How the data were processed

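Directional poly(A) libraries were made by the authors, who aligned reads to GRCm38 with STAR 2.7.0a, counted them per gene with featureCounts (Subread 2.0.1) and deposited raw counts. The strand setting of the counting and the handling of reads that fit several genes are not given in the sources used here. A second deposited table, named as normalized, holds 12137 genes with values 100% equal to the raw counts, and all columns were used. The filter kept genes that reached 10 counts in 3 or more libraries, and these entered edgeR 4.0.16 (robust quasi-likelihood test, TMM factors, 1 mean per medium over all 8 libraries) and Benjamini-Hochberg adjustment over all 12137 genes. An exact permutation test of 2 against 2 libraries cannot go below 0.333. Alternatives were DESeq2 1.42.0, other scaling, filters and thresholds, a replicate block, and each library left out. Floors cover counting error only. Replicate numbers were taken from the labels. Gene positions and exon lengths are from GENCODE M21. The fit was tested on simulated counts.

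The members and lists were chosen with earlier results of these data known. Genes named are the 9 members, the tested genes of a complement list called in CCM or LA over vehicle or TCM over CCM or vehicle, the 5 genes most correlated with C1s1, and cell type markers. Other genes, such as Cr1l, Colec10, Serping1, Rtp4 and Fbxw5, were named after their values were seen. A gene of the complement list is not reported here.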

Additional observations from a re-analysis of the deposited data

How the results depend on the processing

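Of the 5 tested genes 4 were called for TCM over CCM, vehicle and LA, and 3 to 5 under the alternatives run. The 5 was for TCM over CCM without a filter, where 8 genes were tested, 4 being called higher and 1, C3, lower. With 10 counts required in every library, 4 genes were tested and 3 called. For LA over vehicle and LA over CCM the count was 0 under each alternative, and for CCM over vehicle it was 0 to 1, the gene being C4b. C1s1 was chosen by its rise with CCM and TCM, so a call of it would follow from that choice. It is left out of these counts. Calls of other complement genes numbered 0 for CCM over vehicle (1 without a filter), 1 for LA over vehicle (0 when 10 counts were required in every library, 0 to 1 with 1 library left out), 4 for TCM over CCM (2 with DESeq2, 2 with 10 counts in every library, 2 with only the libraries compared, 2 to 4 with 1 left out) and 4 for TCM over vehicle (2 without TMM factors, 2 with only the libraries compared, 2 to 4 with 1 left out). The difference of effects called 2 (1 to 3). Of the single-gene log2 FC values 14 changed sign, all uncalled and with 1 library left out, where the ranges were -0.072 to 0.25 (C1ra, LA over vehicle), -0.18 to 0.058 (C1rl, CCM over vehicle), -0.30 to 1.03, -0.38 to 0.96, -0.99 to 0.35 and -0.41 to 0.38 (C3, CCM, LA and TCM over vehicle and LA over CCM), and -0.29 to 0.11, -0.19 to 0.17 and -0.13 to 0.26 (Cd59a, CCM and LA over vehicle and LA over CCM). Without TMM factors the median of all genes moved to -0.14 for TCM over CCM, and the 1072 higher and 1242 lower calls became 2692, of which 24.2% were higher; for TCM over vehicle 1041 and 1080 became 2309 (30.4% higher). The TMM factors so left out were 0.938 and 0.939 with TCM, 1.03 and 1.04 with CCM and 1.02 and 1.01 with vehicle. Why they differ between the media was not tested. Deviations of same-numbered libraries correlated at 0.325 for vehicle with LA and at -0.217 to 0.0995 for the other 5 pairs of media, so the numbers were not taken as pairs over all media. With the replicate block 4 of the 5 tested genes were called for TCM over CCM and 0 for LA over vehicle, with 2367 and 356 genes called in all. Swapping the 2 CCM numbers in that block, an alternative added after seeing the data, gave 2675 calls.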

Other observations

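Serping1, the C1 inhibitor that removes C1r and C1s from their complex, had 48 counts (4.04 CPM) in CCM replicate 1 and 0 to 6 counts in the other 7 libraries, CCM replicate 2 having 2. It did not pass the filter on low counts and was not tested in the main fit. Colec10, the lectin partner of Colec11, differed between the effects of TCM and LA (log2 FC -1.80, SE 0.50, adjusted P = 0.0421 by edgeR, adjusted P = 0.139 by DESeq2), and it was named after its values were seen. The call was lost without vehicle replicate 1, CCM replicate 1, CCM replicate 2, LA replicate 2 or TCM replicate 1 (adjusted P = 0.068 to 0.166). It had 1.34 and 2.31 CPM with vehicle, 2.11 and 2.29 CPM with CCM, 2.60 and 3.59 CPM with LA, and 1.05 and 1.09 CPM with TCM.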
